A study of Mus musculus with 6 samples.

Results

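The mitochondrial genome encodes 13 proteins, all of them subunits of the respiratory chain or of ATP synthase, and 10 of these mRNAs are described here in the irradiated mouse cortex. They are mt-Nd1, mt-Nd2, mt-Nd4, mt-Nd5 and mt-Nd6 of complex I, mt-Cytb of complex III, mt-Co1, mt-Co2 and mt-Co3 of complex IV, and mt-Atp6 of ATP synthase. The genes were chosen by name from the 51826 genes of the deposited tables, by a rule that uses no measured value, although earlier results of these data were known. All 10 were found there. Cortical mRNA was sequenced from 3 wild-type mice (Lgmn+/+-IR) and 3 mice without asparagine endopeptidase (AEP, the lysosomal protease encoded by Lgmn; Lgmn-/--IR). All 6 animals were male BALB/c mice of 6 to 8 weeks that received 10 Gy of X-rays to the whole brain, and the cortex was taken on day 3. The knockout animals were Lgmn flox/flox:Cre+ mice derived from a single positive embryonic stem cell clone, and the driver of Cre is not given in the sources used here. Every comparison is of genotypes after irradiation, since mice without irradiation were not analysed here.

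Complex I takes electrons from NADH, complex III passes them to cytochrome c and complex IV hands them to oxygen. The protons pumped on the way drive ATP synthase, on which neurons depend for most of their ATP. In each complex a core made inside the mitochondrion is joined by subunits that are encoded in the nucleus and imported. The mitochondrial genome is transcribed from both strands into long precursors, and cutting at the tRNAs that lie between the genes releases the mRNAs and the rRNAs, so that RNA stability sets much of the difference between genes of the same strand.

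The libraries held 41874462 to 46829441 counts, and the summed counts of the 10 genes ranged from 2194119 to 3983610 per library, so counting error was small beside the spread between animals. The count of Lgmn itself was 5558, 5528 and 5775 in wild-type replicates 1 to 3 and 3703, 3269 and 4109 in those of the knockout. Its log2 fold change was −0.64 (adjusted p = 0.0315 by the quasi-likelihood test of edgeR, adjusted after Benjamini-Hochberg), lower in 3 of 3 libraries but with most of the count still present. The direction was the same in all 20 alternative settings, but the call was lost in 6 of them, which were the replicate number as a block (adjusted p = 0.113), no filter on low counts (0.0632), and the omission of any wild-type library (0.103, 0.131 and 0.104) or of knockout replicate 1 (0.0949). Neuronal markers were abundant in all libraries, at 7285 to 8846 CPM (counts scaled to the library total) in sum over 8 genes. The summed markers of oligodendrocytes were 3403 to 4217 CPM in Lgmn+/+-IR and 2146 to 2486 in Lgmn-/--IR. Of these genes 5 of 6 were called lower, beside 1.68% of all tested genes. Those of red cells were 7.76 to 15.9 and 219 to 2254 CPM, with 5 of 5 tested genes called higher, beside 1.65% of all tested genes. With the block, 2 of the oligodendrocyte genes and 0 of the red cell genes were called, beside 150 of all 18345 tested genes. Striatal markers varied within both groups, from 369 to 1458 and from 274 to 1352 CPM.

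The 10 genes lie on the mitochondrial chromosome (M) of GRCm38, separated by tRNA genes and, in places, by the other protein genes. Along the heavy-strand transcript they run from mt-Nd1 (2751 to 3707) through mt-Nd2 (3914 to 4951), mt-Co1 (5328 to 6872), mt-Co2 (7013 to 7696), mt-Atp6 (7927 to 8607), mt-Co3 (8607 to 9390), mt-Nd4 (10167 to 11544) and mt-Nd5 (11742 to 13565) to mt-Cytb (14145 to 15288). The gene mt-Nd6 (13552 to 14070) lies on the opposite strand. None of the 10 has an intron, and in the GENCODE M21 models 7 of the 10 end in a complete stop codon. The other 3 end in a single T, which the poly-A tail turns into a stop codon, so for these mRNAs the tail is part of the reading frame. The models of mt-Nd1 and mt-Nd2 share their last 2 bases with a tRNA gene on the same strand. These are mt-Ti (3706 to 3707) and mt-Tw (4950 to 4951). Whether the mRNAs keep these bases after cutting, and so a complete stop codon, was not tested. The last 30 bases of 5 transcripts show both kinds of end as the models give them, with the stop codon, or the base that begins it, in capitals.
mt-Nd1: tttacagcgggagtaccaccatacataTAG
mt-Atp6: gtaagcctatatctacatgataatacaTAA
mt-Co3: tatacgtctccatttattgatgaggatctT
mt-Nd4: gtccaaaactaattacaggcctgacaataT
mt-Cytb: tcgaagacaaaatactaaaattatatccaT

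Neighboring genes also share bases, which matters for counts because a read inside a shared stretch belongs to both. The largest shared stretch, of 43 bases on the same strand (M, 7927 to 7969), joins the end of mt-Atp8 to the start of mt-Atp6, and mt-Nd5 shares 14 bases (M, 13552 to 13565) with mt-Nd6 on the opposite strand. Both are printed from the forward strand, with 8 bases before the shared stretch in lower case and the shared bases in capitals.
mt-Atp8 and mt-Atp6: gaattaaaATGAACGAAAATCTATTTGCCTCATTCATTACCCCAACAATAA
mt-Nd5 and mt-Nd6: atactcaaTTAATCTCGAGTAA
The start codon of mt-Atp6 opens the first of these stretches and the stop codon of mt-Atp8 closes it. In the second, the stop codon of mt-Nd5 lies at the right end, and the stop codon of mt-Nd6, read on the other strand, at the left end. Whether strand was used in counting is not given in the sources used here, so reads from these 14 bases cannot be assigned to either gene. If strand was not used, the limit is wider, since both strands are transcribed into long precursors. Counts of mt-Nd6 (M, 13552 to 14070) may then include reads from the opposite strand.

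The 10 mRNAs made up 7.31%, 7.56% and 7.59% of all counts in Lgmn+/+-IR replicates 1, 2 and 3, and 8.16%, 4.88% and 8.51% in Lgmn-/--IR replicates 1, 2 and 3. The wild-type libraries lay close together, whereas replicates 1 and 3 of the knockout were above all of them and replicate 2 was below all of them. The means were 7.49% ± 0.155 and 7.18% ± 2.00 (SD, n = 3 each), and the fold of 0.96 was far inside the spread between knockout animals (two-sided exact permutation test, p = 1.0). No p below 0.1 is possible with 3 against 3 libraries. Without Lgmn-/--IR replicate 2 the fold was 1.11, in the other direction, with p = 0.1 in the same exact test. In bulk tissue, fewer cells rich in mitochondria and less mitochondrial RNA per cell cannot be told apart.

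**Figure D1:**
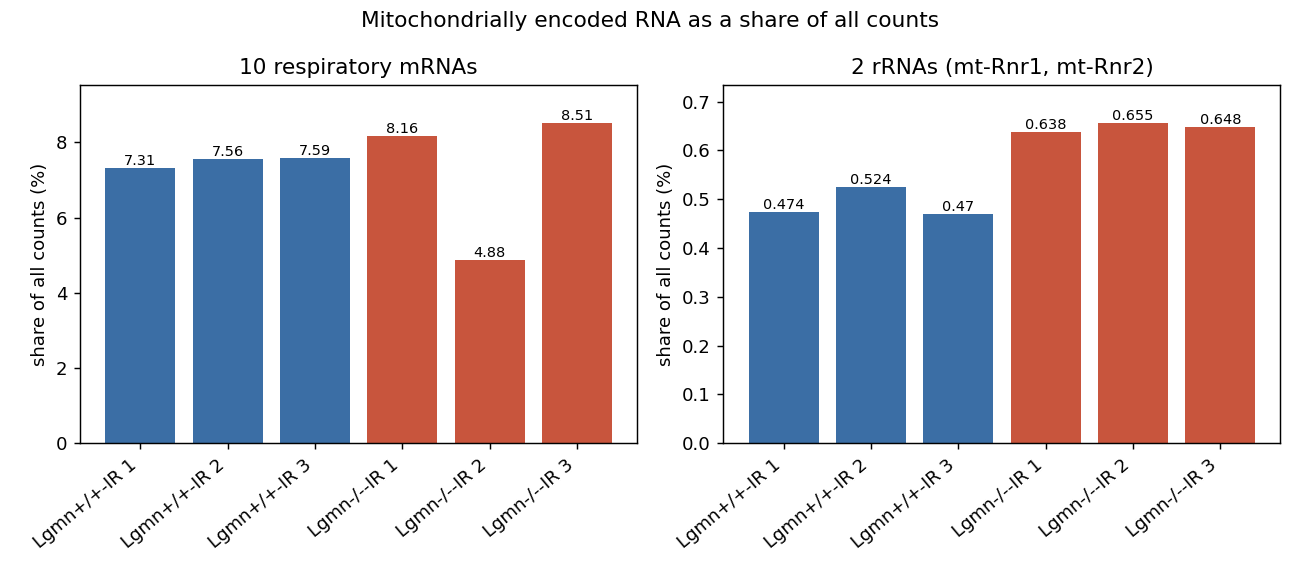
Share of all counts (%, axis from 0) taken by the 10 respiratory mRNAs (left) and by the mitochondrial rRNAs mt-Rnr1 and mt-Rnr2 (right), 1 bar per library, Lgmn+/+-IR in blue and Lgmn-/--IR in red. The mRNA share of Lgmn-/--IR replicate 2 was 4.88% against 7.31% to 8.51% elsewhere, while its rRNA share of 0.655% stood with the other knockout libraries.

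The same library stood apart in other readings of the share. In FPKM, which corrects a count for the length of the transcript and the size of the library, the 10 genes took 12.9%, 13.3% and 13.6% of the sum in the wild type and 14.4%, 9.08% and 15.1% in the knockout. All 37 genes of the mitochondrial genome together took 8.03% to 8.34% of the counts in the wild type, and 9.07%, 5.68% and 9.43% in the knockout. Red cell RNA did not follow this order. Hemoglobin genes took 0.223%, 0.177% and 0.0217% of the counts in Lgmn-/--IR replicates 1, 2 and 3, and without them the share of the 10 mRNAs in replicate 2 was 4.89%.

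Gene by gene, none of the 10 mRNAs differed between genotypes by edgeR's quasi-likelihood test, with adjusted p from 0.531 to 0.937 over 18345 tested genes. The unadjusted p was under 0.05 for 0 of 10, beside 18.6% of all tested genes, and DESeq2 also called 0 of 10. Across all tested genes 3.33% were called, 1.65% higher and 1.68% lower in Lgmn-/--IR, and DESeq2 called 5.97% of its 21756 genes. With the added limit of an absolute log2 fold change over 1, the study's definition of a DEG, 2.06% of all genes and 0 of the 10 were called. The log2 fold change was above 0 for 6 genes and below 0 for 4, although mt-Nd4, mt-Nd6 and mt-Co2 passed from above to below 0 when library totals alone were used for scaling. The median was 0.05, beside −0.01 over all tested genes. In no gene were the groups free of overlap, a pattern that 25.7% of all tested genes showed.

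The spread within the knockout limited these tests. The coefficient of variation was 0.788% to 10.8% in Lgmn+/+-IR and 22.4% to 42.2% in Lgmn-/--IR, and the standard errors of the log2 fold changes ran from 0.17 to 0.31. Lgmn-/--IR replicate 2 had the lowest level of all 6 libraries for 10 of 10 genes, and replicate 3 exceeded every wild-type library for 9 of 10. Without replicate 2 the log2 fold change was above 0 for 10 of 10 genes, with a median of 0.27 beside −0.01 for all genes. In that fit 1 gene, mt-Nd1, was called (2.68% of 18691 genes, 1.33% higher). As replicate 2 was the lowest library for each gene, a rise of these estimates on its omission was built in. Without knockout replicate 3 instead, mt-Nd1 was the only one of the 10 above 0, at 0.15.

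**Figure D2:**
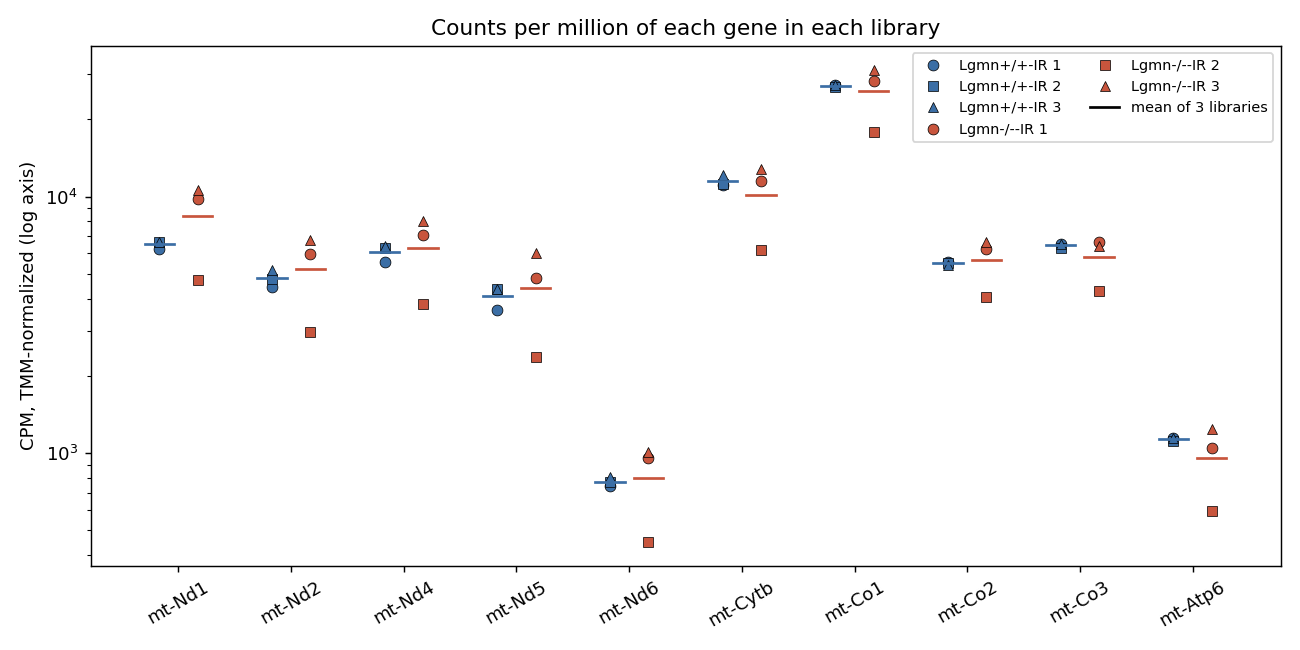
CPM (counts scaled to library size with the TMM method, log axis) of each of the 10 genes in each library, Lgmn+/+-IR in blue and Lgmn-/--IR in red, with a bar at the mean of 3 libraries. For every gene the red square, Lgmn-/--IR replicate 2, is the lowest point, and no gene has groups that do not overlap.

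Complex I has 5 of the 10 genes. mt-ND1 forms part of the site where ubiquinone binds, between the arm that takes up electrons and the arm in the membrane. Its mRNA stood at 6241, 6666 and 6671 CPM, here scaled with the TMM method, in Lgmn+/+-IR and at 9761, 4723 and 10615 CPM in Lgmn-/--IR. Replicates 1 and 3 of the knockout were 1.496 and 1.63 times the wild-type mean, the largest excess of the 10 genes in both libraries, and replicate 2 was at 0.724 of it. The log2 fold change was 0.36 (SE 0.28, adjusted p = 0.531 by edgeR's quasi-likelihood test), and 0.65 without replicate 2 (SE 0.08, adjusted p = 0.0190). Without knockout replicate 1 or 3 it was 0.23 or 0.15 instead (adjusted p of 0.756 and 0.879).

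The genes mt-Nd2, mt-Nd4 and mt-Nd5 encode the subunits of the membrane arm that resemble antiporters and pump protons. In the wild type mt-Nd2 was at 4429, 4779.8 and 5187 CPM, and in the knockout at 5964, 2958 and 6760.2 CPM. For mt-Nd4 the levels were 5537, 6317 and 6396 CPM against 7078, 3803 and 7995 CPM, and for mt-Nd5 they were 3599, 4356 and 4375 CPM against 4813, 2371 and 6014 CPM. In each of these genes 2 knockout libraries were above and 1 was below all wild-type libraries. Their log2 fold changes were 0.12, 0.05 and 0.10 (adjusted p of 0.846, 0.936 and 0.890 by edgeR's quasi-likelihood test), and without replicate 2 they were 0.41, 0.31 and 0.40, with adjusted p of 0.0944, 0.153 and 0.170. The values for mt-Nd5 were the most spread among the 10, with replicate 2 at 0.438 of the mean of the other knockout libraries.

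The gene mt-Nd6 is the only protein gene on its strand and encodes another subunit of the membrane arm. Its mRNA was at 745, 770.4 and 807 CPM in Lgmn+/+-IR and at 952, 450.0 and 1005 CPM in Lgmn-/--IR. It showed the order of the other complex I genes, with replicate 2 at 0.460 of the other knockout libraries. The mRNA comes from the other precursor, but with the strand setting unknown its counts may include reads from the opposite strand. The log2 fold change was 0.05 (SE 0.28, adjusted p = 0.937 by edgeR's quasi-likelihood test), and 0.34 without replicate 2 (adjusted p = 0.0852).

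Cytochrome b, the heme protein of complex III that oxidizes ubiquinol, is the product of mt-Cytb. The mRNA was at 11081, 11244 and 12143 CPM in the wild type and at 11494, 6209.6 and 12806 CPM in the knockout. Replicate 1 of the knockout lay within the wild-type range, replicate 3 slightly above it, and replicate 2 at 0.540 of the wild-type mean. The log2 fold change of −0.18 (SE 0.25, adjusted p = 0.749 by edgeR's quasi-likelihood test) became 0.09 without replicate 2 (adjusted p = 0.596).

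Complex IV is represented by its 3 core subunits. mt-CO1 holds the heme and copper site where oxygen is reduced, and its mRNA was at 27154, 26814 and 27208 CPM in Lgmn+/+-IR and 28253, 17788 and 31289 CPM in Lgmn-/--IR. mt-CO2 receives electrons from cytochrome c, and its mRNA was at 5536, 5514 and 5433 CPM against 6257, 4068 and 6651 CPM. mt-CO3 supports the core without a metal site, and its mRNA was at 6543, 6327 and 6534 CPM against 6671, 4302 and 6390.5 CPM. In replicate 2 these 3 genes lay nearest to the other knockout libraries, at 0.597, 0.630 and 0.659 of the mean of the other knockout libraries, whereas the other 7 genes were at 0.438 to 0.518. Their log2 fold changes were −0.07, 0.04 and −0.16 (adjusted p of 0.879, 0.921 and 0.653 by edgeR's quasi-likelihood test), and 0.14, 0.24 and 0.02 without replicate 2.

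Of ATP synthase, mt-Atp6 encodes the subunit that conducts protons past the rotating ring. Its mRNA was at 1146, 1113 and 1148 CPM in the wild type and at 1042, 592 and 1243 CPM in the knockout. Replicate 1 was below the wild-type libraries here, along with replicate 2, and only replicate 3 was above them. The log2 fold change was −0.24 (SE 0.24, adjusted p = 0.642 by edgeR's quasi-likelihood test), the lowest of the 10, and 0.01 without replicate 2. These levels leave out the reads listed under a nuclear copy, Gm10925, which has 489% to 530% of the count (described further on). With that copy added the log2 fold change was −0.19.

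Levels of different genes can be compared only per length, so FPKM was used for their order. For genes with near-identical nuclear copies, described further on, the FPKM counts only the reads listed under the mitochondrial name. In Lgmn+/+-IR mt-Co1 led with 15638 ± 72.0 FPKM (SD, n = 3), followed by mt-Cytb with 8968 ± 375, mt-Co3 with 7371 ± 76.7, mt-Co2 with 7179 ± 140 and mt-Nd1 with 6092 ± 245. Then came mt-Nd2 with 4128 ± 305 and mt-Nd4 with 3942 ± 310 FPKM, whose libraries overlapped, mt-Nd5 with 2012 ± 219, mt-Atp6 with 1490 ± 12.4 and mt-Nd6 with 1333 ± 47.6. All neighbors in this order other than mt-Nd2 and mt-Nd4 had libraries that did not overlap, although mt-Co3 and mt-Co2 were only just apart, at 7296 and 7289 FPKM where they came closest.

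The order was not the same in every knockout library. In Lgmn-/--IR replicate 1 mt-Nd1 stood above mt-Cytb, at 8903 against 8769 FPKM, and in replicate 3 it was close behind, at 9119 against 9202 FPKM. Replicate 2 had mt-Co2 and mt-Co3 in the positions after mt-Co1, at 5403 and 4984 FPKM, ahead of mt-Cytb at 4929 FPKM. In all 6 libraries mt-Co1 was the highest and mt-Nd2, mt-Nd4 and mt-Nd5 kept their order. The lowest level was that of mt-Nd6 in 4 libraries and of mt-Atp6 in Lgmn-/--IR replicates 1 and 3. Part of this order turned when the reads listed under the nuclear copies were added to each gene, an alternative chosen after the values were seen. In Lgmn+/+-IR mt-Co3 (14695 ± 151 FPKM) and mt-Co2 (14370 ± 274), whose libraries overlapped, then stood above mt-Cytb, and mt-Atp6 reached 8851 ± 133 FPKM, within the range of mt-Cytb (SD, n = 3 each). With copies, mt-Co1 was still the highest and mt-Nd6 was the lowest in all 6 libraries, and mt-Nd4 (5114 ± 429 FPKM in Lgmn+/+-IR) was above mt-Nd2 in each. Whether reads with several matches were listed under both names is not given in the sources used here. If they were, adding the copies counted such reads more than once, and the order with copies may reflect that.

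Dividing each gene by the sum of the 10 in its library removes the level of the library and leaves the composition. The share of mt-Nd1 was 8.67%, 9.02% and 8.79% in the wild type and 11.9%, 9.99% and 11.7% in the knockout. Replicate 2 was above the wild type but below the other knockout libraries. For mt-Cytb the share was 15.4%, 15.2% and 16.0% against 14.0%, 13.1% and 14.1%. For mt-Atp6 it was 1.59%, 1.51% and 1.51% against 1.27%, 1.25% and 1.37%. In these 3 genes the groups did not overlap, with differences of 2.36, −1.80 and −0.24 percentage points. Each reached p = 0.1 in the exact permutation test (two-sided), the lowest value possible with this design. After Benjamini-Hochberg adjustment over the 10 genes this p was 0.333, so none passed a threshold of 0.05. A count of 3 of 10 is near the 25.7% of all tested genes whose groups did not overlap in CPM. The 10 shares are parts of a fixed sum, so they do not vary separately. The split of FPKM in place of counts gave the same 3 genes and directions, and so did the split with nuclear copies added, where the differences were 1.85 points for mt-Nd1, −1.27 for mt-Cytb and −0.83 for mt-Atp6 (−0.41 in FPKM).

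In the other 7 genes the groups overlapped, with exact permutation p from 0.3 to 0.7. The largest of these shares, that of mt-Co1, was 37.7%, 36.3% and 35.8% against 34.3%, 37.6% and 34.5%, with replicate 2 inside the wild-type range. Without replicate 2 the groups did not overlap in 8 of the 10 genes. Oligodendrocyte and red cell markers also separated the genotypes (above), and their part in the composition was not tested.

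**Figure D3:**
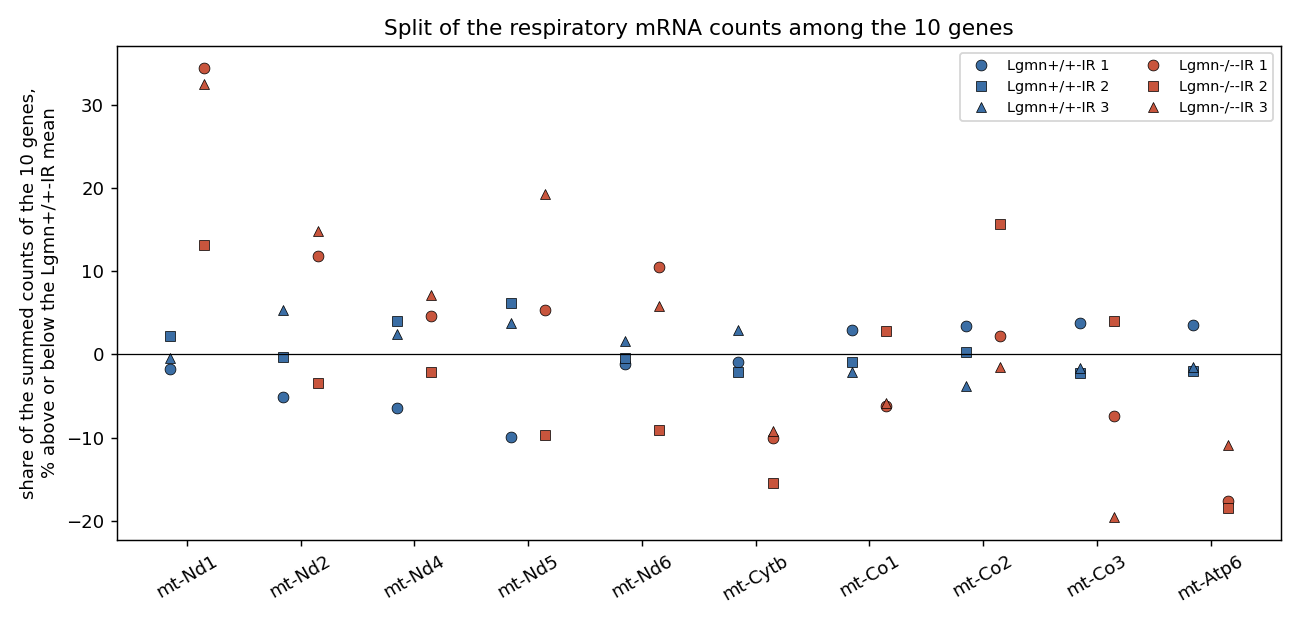
Share of each gene in the summed counts of the 10 genes, drawn as % above or below the Lgmn+/+-IR mean (y axis), 1 point per library, Lgmn+/+-IR in blue and Lgmn-/--IR in red. All red points lie above all blue points for mt-Nd1 and below them for mt-Cytb and mt-Atp6, and the groups overlap in the other 7 genes. In CPM, 25.7% of all tested genes had groups that did not overlap.

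The rRNAs of the mitochondrial ribosome, mt-Rnr1 and mt-Rnr2, precede mt-Nd1 on the same strand and did not show the drop of Lgmn-/--IR replicate 2. The transcript mt-Rnr2 was at 2408, 2818 and 2525 CPM in the wild type and at 3558, 3731 and 3680.2 CPM in the knockout, where the 3 libraries nearly coincided. It rose by 0.50 on the log2 scale (SE 0.09, adjusted p = 0.0327 by edgeR's quasi-likelihood test), higher in 3 of 3 libraries. This call was lost, with a log2 fold change of 0.46 to 0.57, when any single library was left out (adjusted p of 0.0601 at the lowest) and when the replicate number was a block (adjusted p = 0.131); in all it was lost in 13 of 20 settings, with the same direction in each.

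The smaller mt-Rnr1 was at 2265, 2309 and 2173 CPM against 2877, 2616 and 3235 CPM, also without overlap, as in 25.7% of all tested genes. Its log2 fold change of 0.37 did not pass the test (adjusted p = 0.110 by edgeR's quasi-likelihood test; 0.0407 by DESeq2). Together the rRNAs were 0.474%, 0.524% and 0.470% of all counts in the wild type and 0.638%, 0.655% and 0.648% in the knockout (exact permutation test, p = 0.1, the smallest possible).

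Set against the mRNAs, there were 6.49, 6.94 and 6.19 rRNA counts per 100 counts of the 10 mRNAs in the wild type and 7.82, 13.4 and 7.62 in the knockout. All 3 knockout libraries were above the wild type and replicate 2 was far above the others. The fold of the means was 1.47 (exact permutation test, p = 0.1), and 1.18 to 1.62 with each library left out in turn. This ratio was chosen after the values were seen. The label of all libraries is poly-A RNA, and nuclear RNAs without a poly-A tail, such as most histone mRNAs, summed to 73.2 to 79.1 CPM in Lgmn+/+-IR and to 105, 91.2 and 67.6 in Lgmn-/--IR replicates 1, 2 and 3. Of the 18 that could be tested, 1, Hist2h3c2, was called higher, beside 1.65% of all tested genes. Its log2 fold change was 1.39 (adjusted p = 0.0298 by edgeR's quasi-likelihood test, 0.138 under the block). The part of such RNAs in the rRNA result was not tested.

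**Figure D4:**
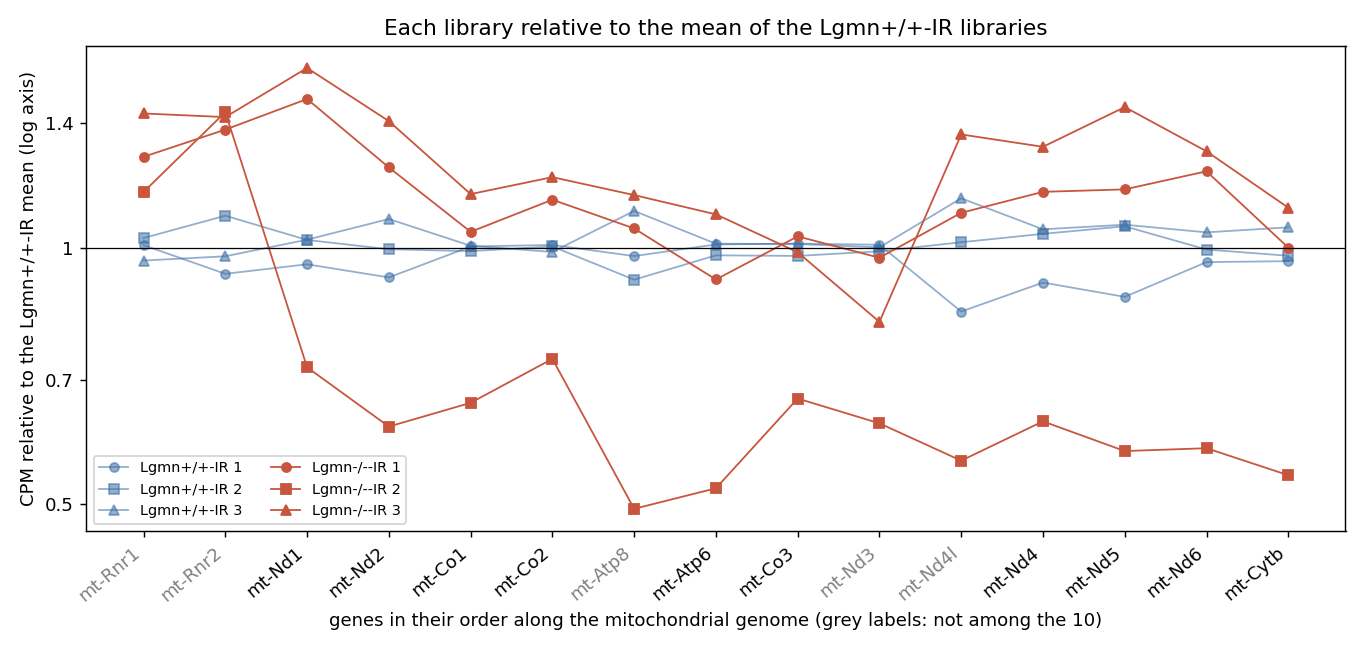
CPM of mitochondrial genes relative to the Lgmn+/+-IR mean (log axis, 1 = wild-type mean), in their order along the genome, 1 line per library, Lgmn+/+-IR in blue and Lgmn-/--IR in red; grey names are the rRNAs and the 3 proteins outside the 10. Lgmn-/--IR replicate 2 is level with the other knockout libraries at mt-Rnr2 and drops to 0.724 of the wild-type mean at mt-Nd1, which comes next on the axis.

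Of the other 27 genes of the mitochondrial genome 24 could be tested, and mt-Rnr2 was the only one called, beside 3.33% of all tested genes. The median log2 fold change of the 24, of which 19 are tRNAs, was 0.29, beside −0.01 for all tested genes. None of the remaining 3 protein genes was called. The mRNA of mt-Nd3, the complex I gene between mt-Co3 and mt-Nd4l, was at 352, 346 and 349.6 CPM in the wild type and at 339.9, 217 and 286 CPM in the knockout. The groups did not overlap, as in 25.7% of all tested genes. Its log2 fold change of −0.31 did not pass the test (adjusted p = 0.335 by edgeR's quasi-likelihood test). The log2 fold changes of mt-Atp8 and mt-Nd4l were −0.15 and 0.01. The tRNAs, which are mostly too short for this kind of library, took 0.00944% to 0.0183% of the counts.

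Several members have near-identical copies in the nuclear genome, which limits how exactly their counts are known. A block of chromosome 1 of GRCm38 holds copies of 5 members. The copies of mt-Co2 (Gm28661, 24614885 to 24615565), mt-Co3 (Gm28437, 24613189 to 24613971) and mt-Atp6 (Gm10925, 24613974 to 24614651) match over almost the whole gene with 0 mismatches. Gm28439 (24611535 to 24612410) matches 876 bases of mt-Nd4 with 0 mismatches, and Gm29216 (24615706 to 24616197) matches 483 bases of mt-Co1 with 1 mismatch.

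In each library Gm28661 was given 98.9% to 99.6% of the count of mt-Co2, and Gm28437 98.9% to 99.7% of that of mt-Co3. Gm10925 was given 489% to 530% of the count of mt-Atp6, so most counts on that sequence were listed under the nuclear name. The shares were 28.3% to 32.9% for the copy of mt-Nd4 and 17.1% to 18.4% for that of mt-Co1. These copies followed their members, with Lgmn-/--IR replicate 2 the lowest library for all 5. Among the annotated transcripts, the only sequences searched, no copy was found for mt-Nd1, mt-Nd6 or mt-Cytb. More divergent copies of mt-Nd2 and mt-Nd5 on chromosomes 2 and 13 were given at most 0.187% of the member's count. With copies included the share of all counts was 9.75%, 10.0% and 10.0% in the wild type and 10.7%, 6.51% and 11.1% in the knockout. Reads listed under both names, if any, would enter this share more than once. The order of the libraries was as before, and 0 of the 10 genes were called.

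**Figure D5:**
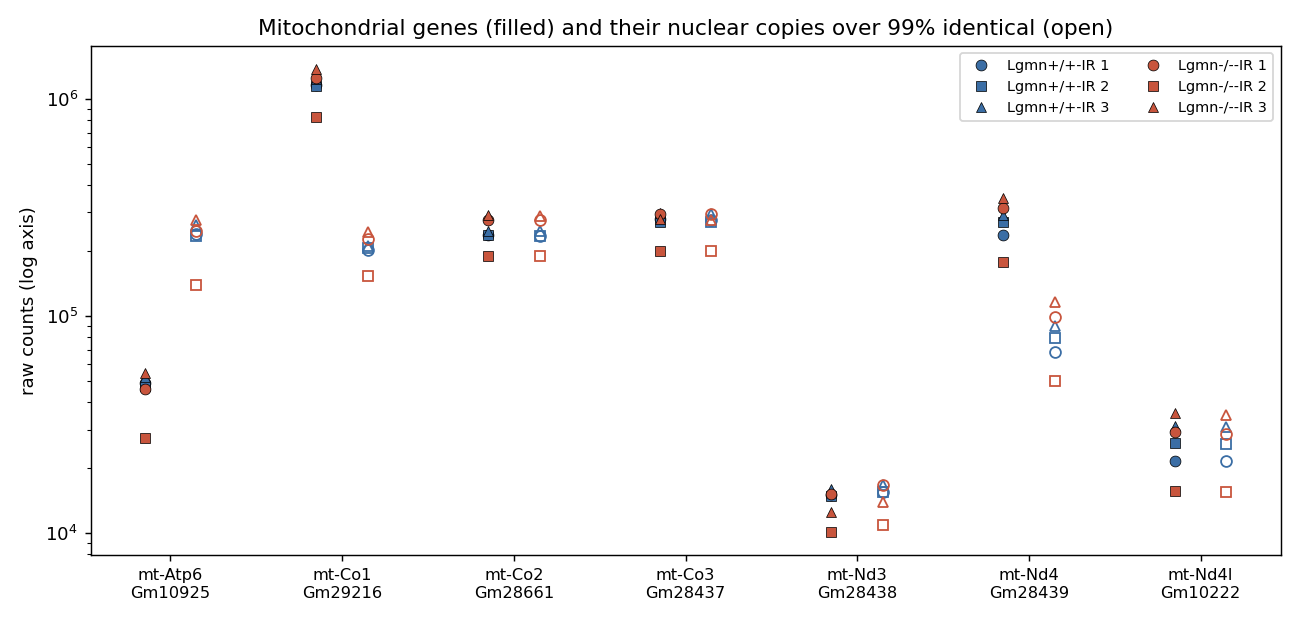
Raw counts (log axis) of 7 mitochondrial genes (filled) and of their nuclear copies of over 99% identity (open), 1 point per library, Lgmn+/+-IR in blue and Lgmn-/--IR in red. Counts of mt-Co2 and mt-Co3 are nearly equal to those of their copies, while the copy of mt-Atp6 has 489% to 530% of the count of the gene.

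The complexes also need nuclear subunits, and 71 of these for complexes I, III and IV and ATP synthase were compared. None was called higher and 1 of 71 was called lower, near the 1.65% higher and 1.68% lower among all tested genes. Their median log2 fold change was −0.11, beside 0.05 for the 10 mitochondrial genes and −0.01 for all genes. The 1 call was Ndufs5, an accessory subunit of complex I, at 79.0, 77.4 and 69.5 CPM in the wild type and 12.4, 15.6 and 11.4 CPM in the knockout. It fell by 2.52 on the log2 scale (SE 0.14, adjusted p = 0.000217 by edgeR's quasi-likelihood test; 0.00410 with the replicate block). The nuclear subunits of complex III (9 genes), complex IV (11) and ATP synthase (15) and the 4 subunits of complex II, which has no mitochondrial gene, had 0 calls, with medians of −0.12, −0.15, −0.08 and −0.11.

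The balance between the genomes varied with the knockout animal. Counts of the 10 genes per count of the 71 nuclear subunits were 6.63, 6.68 and 7.09 in the wild type and 8.24, 4.36 and 9.53 in the knockout. Replicates 1 and 3 of the knockout were above and replicate 2 below all wild-type libraries, and the fold of the means was 1.09 (exact permutation test, p = 0.7). By complex the folds were 1.24 for complex I, 0.98 for complex III, 1.09 for complex IV and 0.89 for ATP synthase, with exact permutation p from 0.5 to 1.0. As a set the nuclear subunits were not reduced in replicate 2, where their median was 1.16 times the mean of the other knockout libraries. Single subunits ranged from 0.705 to 2.46, so some were lower there, whereas the 10 mitochondrial genes were at 0.438 to 0.659. Of 10125 nuclear genes with at least 10 CPM, 329 (3.25%) were as low in replicate 2 as the range of the 10 genes, and the median of these 10125 genes was 0.984.

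Few genes that make, process and use mitochondrial RNA were called, beside 3.33% of all tested genes. At that share, 0 calls in lists this short says little about them. Of 17 genes of mitochondrial transcription and DNA replication 0 were called (median log2 fold change −0.04), with Polrmt, the mitochondrial RNA polymerase, at −0.04 and Tfam, which packages the genome and starts transcription, at 0.05. Of 20 genes of RNA processing and stability 0 were called (median −0.05), and Lrpprc, which protects the mRNAs and their tails, was at −0.09. The 7 regulators of mitochondrial biogenesis had 0 calls and a median of 0.19, with Ppargc1a, the coactivator PGC-1α, at 0.14, and 11 genes of the mitochondrial stress response had 0 calls and a median of 0.03. Of 78 proteins of the mitochondrial ribosome 2 were called lower and 0 higher, beside 1.68% lower among all genes, and their median was 0.03. They were Mrpl9 of the large subunit, with a log2 fold change of −0.84 (adjusted p = 0.0195 by edgeR's quasi-likelihood test), and Mrps14 of the small subunit, with −0.86 (adjusted p = 0.0495 by the same test). Both calls were lost with the replicate block, at adjusted p of 0.0709 and 0.121.

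The nuclear genes whose level over the 6 libraries was most like the summed share of the 10 genes were searched among 10134 with at least 10 CPM. The copy Gm29216 came first (Pearson's r = 0.99 between log2 CPM and the log2 share), followed by Sybu (0.99) and Srr (0.98). These are the highest of 10134 values and a description, with no test. Sybu was at 72.6, 75.4 and 82.1 CPM in Lgmn+/+-IR and at 96.0, 34.2 and 87.5 CPM in Lgmn-/--IR, and Srr at 61.5, 68.5 and 72.4 CPM against 67.2, 27.7 and 75.3 CPM. In both genes replicate 2 of the knockout was the lowest library, as it was for the 10 mitochondrial genes.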

How the data were processed

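Cortical poly-A RNA of 3 Lgmn+/+-IR and 3 Lgmn-/--IR mice was analysed, with groups and replicate numbers taken from the sample labels. The authors filtered reads with Trimmomatic (version 0.36 in the submitters' processing notes), used HISAT2 for mapping, and obtained expression values from StringTie. The files the authors deposited give the raw count of reads per gene, not normalized, and the FPKM of the same genes. The notes name GRCm38. The read counter, the use of strand and the treatment of reads with several matches are not given in the sources used here. FPKM scales counts by length and library size, so a change in a few abundant genes moves all others.

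Counts were tested with edgeR 4.0.16 in R 4.3.3 (filterByExpr, TMM, quasi-likelihood test of genotype with no covariate, p-values adjusted after Benjamini-Hochberg over 18345 genes, threshold 0.05). The study's methods name limma without the values it was run on. A DEG, which also needs an absolute log2 fold change over 1 as in the study, was called for 0 of the 10 genes. Shares and ratios were compared with two-sided exact permutation tests. Gene positions, classes and sequences came from GENCODE M21, in which 51633 of 51826 gene IDs were found, and copies were sought with BLAST 2.17.0+ (an identity of 95% or more, covering 80% or more of either transcript). Total counts were 41874462 to 46829441, and intervals for counting error were not drawn since the spread between animals was far larger.

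All 10 genes, Lgmn, other mitochondrial genes, copies, the called genes of 21 lists of pathways and cell types, Polrmt, Tfam, Lrpprc, Ppargc1a and the 3 most similar nuclear genes were named by rule. The members and lists were chosen with earlier results of these data known. The listed gene Prorp was not found. Of the marker lists not described in the results, astrocytes had 1 call of 6 (Aqp4, higher), and neurons (8 genes), microglia (6), endothelial cells (5), striatal neurons (6) and choroid plexus (6) had 0, with median log2 fold changes of 0.30, 0.08, −0.21, 0.49, −0.61 and −0.33 in that order. Over all tested genes 3.33% were called. Libraries of the same genotype differed by more than sampling noise, with a chi-square per gene of at least 26.7, and were counted as separate samples.

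Same-numbered libraries are different animals, and their deviations from the group means had correlations of −0.31, −0.045 and −0.053, so the number was used as a block only in an alternative. Other alternatives were DESeq2 1.42.0, limma-voom and limma 3.58.1 on log2(FPKM + 1, 0.1 or 0.01), 4 scalings, 2 filters, copies added to their members (also, added after seeing the data, in the order of FPKM), and each library left out in turn.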

Additional observations from a re-analysis of the deposited data

How the results depend on the processing

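No setting called any of the 10 genes except the omission of Lgmn-/--IR replicate 2, which called 1 (mt-Nd1, log2 fold change 0.65), also when scaling was taken from genes outside the mitochondrial genome, a setting chosen after seeing the data (0.65). Leaving out each library once, the number called ranged from 0 to 1, the fold of the share of all counts from 0.87 to 1.11, the ratio to nuclear subunits from 0.93 to 1.31, and the number of genes whose share of the 10 did not overlap from 3 to 8, the upper value without Lgmn-/--IR replicate 2. No share over all genes was taken for groups without overlap in 3 against 2 libraries. The ratio to nuclear subunits was below 1 only without Lgmn-/--IR replicate 3. By complex it ranged from 1.01 to 1.53 for complex I, 0.82 to 1.19 for complex III, 0.95 to 1.31 for complex IV and 0.74 to 1.07 for ATP synthase.

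Of the 10 log2 fold changes, that of mt-Nd1 was above 0 in every setting, and each of the others changed sign in at least 1. Leaving out libraries they ranged from 0.15 to 0.65 for mt-Nd1, −0.10 to 0.41 for mt-Nd2, −0.16 to 0.31 for mt-Nd4, −0.19 to 0.40 for mt-Nd5, −0.14 to 0.34 for mt-Nd6, −0.38 to 0.09 for mt-Cytb, −0.23 to 0.14 for mt-Co1, −0.089 to 0.24 for mt-Co2, −0.27 to 0.018 for mt-Co3 and −0.47 to 0.013 for mt-Atp6. The difference in share of the 10 ranged from −0.0018 to 0.48 points for mt-Nd4, −0.12 to 0.69 for mt-Nd5 and −0.017 to 0.085 for mt-Nd6. With limma on FPKM the values were −0.0033 for mt-Nd2, −0.062 for mt-Nd4, −0.043 for mt-Nd5, −0.078 for mt-Nd6 and −0.033 for mt-Co2 at all 3 pseudocounts. Library totals alone gave −0.0031 for mt-Nd4, −0.00027 for mt-Nd6 and −0.0046 for mt-Co2, and limma-voom −0.018 for mt-Nd4 and −0.035 for mt-Nd6. Without Lgmn-/--IR replicate 2 and with scaling outside the mitochondrial genome, mt-Cytb was at 0.083, mt-Co1 at 0.14, mt-Co3 at 0.016 and mt-Atp6 at 0.012.

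With the replicate block, which the design does not pair, mt-Nd4 was at −0.015 and mt-Nd6 at −0.031, 0 of the 10 genes were called and the p for the share was 1.0. Over all genes the block made 150 calls, 149 of them among the 611 made without it, and DESeq2 made 1298. The causes of these changes were not tested.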
